A study of Mus musculus with 60 samples.

Results

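Bdnf, Ntf3 and the receptors through which neurotrophins act were followed through 12 lists of chromatin peaks from mouse hippocampal neurons. The 6 genes were Bdnf and Ntf3 (the secreted growth factors BDNF and neurotrophin-3), Ntrk2 and Ntrk3 (the receptor tyrosine kinases TrkB and TrkC), Ngfr (the p75 neurotrophin receptor) and Sort1 (sortilin, which sorts BDNF inside neurons and binds proneurotrophins at the surface). A peak was a member if its list gave it 1 of these 6 gene symbols. This selected 257 of 256375 peaks, and 6 of the 16994 genes that had a peak in any list.

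The lists came from CUT&RUN, in which an antibody directs a nuclease to cut out the DNA around a histone modification. They covered H4K8ac, acetylation of histone H4 that goes with active chromatin, and H3K27me3, the methylation that Polycomb complexes place on silenced genes. Nuclei were taken from male Emx1-NuTRAP mice, in which Cre under Emx1 control tags nuclei and ribosomes of forebrain excitatory neurons and some glia. The exercised mice ran on wheels between postnatal days 21 and 41 (early-life exercise, ELE) and the sedentary mice did not, and both carried the same transgenes. There were 3 arms for each condition: SIT, in which chromatin and RNA came from 1 homogenate of both hippocampi (4 samples per group), and separate isolations from the left or the right hippocampus (3 samples per group). Each list stands for the samples of 1 mark, condition and arm together, so a value below is that of 1 list and has no replicate error. Libraries with a high false discovery rate were left out by the authors from the exercised H4K8ac groups alone, more of them in the separate isolations than in SIT. The exercised H4K8ac lists therefore stand for fewer libraries than the sample numbers above, and how the exclusions divided between left and right is not given in the sources used here. For SIT, the paper's figure legends also give fewer mice than samples, in the sedentary as well as the exercised group. Whether the SIT lists of either mark leave those mice out is not stated. The lists give positions without signal, and the depth behind them is unknown.

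BDNF and neurotrophin-3 are made as proneurotrophins, which are cleaved to the mature factors. Mature BDNF acts mainly through TrkB and neurotrophin-3 mainly through TrkC, while the pro-forms bind p75 together with sortilin. Bdnf is unusual in having many start sites, each with its own 5′ exon spliced to a common coding exon, and some of them respond to neuronal activity. Running is known to raise hippocampal BDNF.

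The lists differed widely in length, and this bears on every comparison below. H4K8ac lists held 12168 to 38136 peaks and 24.5 to 80.3 Mb, and H3K27me3 lists 9899 to 25693 peaks and 41.2 to 135.6 Mb. The exercised list was the longer in SIT for both marks, and the sedentary list was the longer in both separate arms for H4K8ac and in the right arm for H3K27me3. Markers of excitatory neurons carried H4K8ac in at least 1 list for 7 of 7 genes, against 3 of 6 interneuron markers, and H3K27me3 for 3 of 7 against 6 of 6. Among markers of cells outside the neuronal lineage, H4K8ac was listed at 5 of 6 astrocyte, 3 of 6 oligodendrocyte, 3 of 6 microglial and 3 of 5 endothelial genes, in 6 of 6 lists at 1 gene of each class. H3K27me3 was listed at 4 of 6 astrocyte, 3 of 6 oligodendrocyte, 2 of 6 microglial and 4 of 5 endothelial genes. Their part in the results was not tested.

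The sequences on which the results turn are given first, from the RefSeq assembly GRCm38.p6, the build of the peak lists. They are written 5′ to 3′ on the strand of the gene, with CG dinucleotides in capitals. The 250 bases before a start site are shown for Bdnf sites I and IV, which each opened a cluster of sites, and for site VIII, which stands alone. They are also shown for the 2 genes that carried H3K27me3. For Bdnf these were chr2:109674450-109674699 (site I), chr2:109692186-109692435 (site IV) and chr2:109709133-109709382 (site VIII), all on the plus strand, and for Ngfr chr11:95587736-95587985 and Ntf3 chr6:126166911-126167160, on the minus strand.
Bdnf site I: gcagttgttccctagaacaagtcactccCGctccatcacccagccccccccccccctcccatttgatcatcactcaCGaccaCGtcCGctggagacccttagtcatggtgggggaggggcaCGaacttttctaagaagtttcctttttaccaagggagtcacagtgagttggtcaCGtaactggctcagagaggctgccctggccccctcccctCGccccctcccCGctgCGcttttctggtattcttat
Bdnf site IV: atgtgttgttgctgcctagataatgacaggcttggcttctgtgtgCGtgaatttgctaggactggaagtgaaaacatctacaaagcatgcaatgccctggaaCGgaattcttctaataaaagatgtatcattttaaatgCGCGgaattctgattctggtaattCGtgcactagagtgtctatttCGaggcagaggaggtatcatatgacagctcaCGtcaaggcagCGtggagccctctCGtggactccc
Bdnf site VIII: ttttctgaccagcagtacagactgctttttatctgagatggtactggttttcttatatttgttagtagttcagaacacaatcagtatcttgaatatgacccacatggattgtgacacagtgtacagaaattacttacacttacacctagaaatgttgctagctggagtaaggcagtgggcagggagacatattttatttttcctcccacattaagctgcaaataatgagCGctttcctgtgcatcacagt
Ngfr: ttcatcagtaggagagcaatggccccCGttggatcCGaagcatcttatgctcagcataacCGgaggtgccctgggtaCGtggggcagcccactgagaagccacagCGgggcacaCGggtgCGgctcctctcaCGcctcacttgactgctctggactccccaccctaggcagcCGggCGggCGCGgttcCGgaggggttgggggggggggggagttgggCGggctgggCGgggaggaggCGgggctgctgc
Ntf3: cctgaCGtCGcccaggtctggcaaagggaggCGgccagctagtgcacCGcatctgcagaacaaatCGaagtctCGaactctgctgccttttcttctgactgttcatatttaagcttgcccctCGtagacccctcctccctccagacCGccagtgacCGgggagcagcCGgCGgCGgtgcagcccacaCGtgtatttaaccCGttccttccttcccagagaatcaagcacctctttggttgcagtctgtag

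The Ngfr and Ntf3 windows held 16 and 14 CG dinucleotides, and 25.4 and 29.4% of 32851 RefSeq promoter windows of the same length held as many. The windows of Bdnf sites I and IV held 9 each (40.3%), and that of site VIII held 1 (92.1%). The median promoter window held 6. Site IV alone of the 9 Bdnf windows held the sequence TCACGTCA, a variant of the element bound by the activity-regulated factor CREB, which 0.35% of promoter windows hold on either strand. The full element TGACGTCA (1.55% of windows) was in none of the 9. Among the other members, TCACGTCA also lay in the windows before start site 6 of Ntrk2 and start site 5 of Ntrk3. Neither of these sites was inside an H4K8ac peak in any list. A match is a description of these letters and not of binding.

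Stretches shared by most H4K8ac lists, none of which contained a start site, are shown for their positions in the genes. The centre of the stretch common to 6 of 6 lists is given for Bdnf past site III (chr2:109679163-109679412), for an intron of Sort1 (chr3:108296858-108297107) and, in whole, for an intron of Ntrk2 (chr13:59091140-59091216). The centre of a stretch common to 5 of 6 lists is given for the region downstream of Bdnf (chr2:109780389-109780638).
Bdnf past site III: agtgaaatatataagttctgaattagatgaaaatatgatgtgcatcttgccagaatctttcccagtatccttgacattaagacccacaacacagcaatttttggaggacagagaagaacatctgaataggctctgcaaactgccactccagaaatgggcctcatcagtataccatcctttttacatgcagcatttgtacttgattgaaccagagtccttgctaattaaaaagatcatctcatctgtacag
Bdnf downstream: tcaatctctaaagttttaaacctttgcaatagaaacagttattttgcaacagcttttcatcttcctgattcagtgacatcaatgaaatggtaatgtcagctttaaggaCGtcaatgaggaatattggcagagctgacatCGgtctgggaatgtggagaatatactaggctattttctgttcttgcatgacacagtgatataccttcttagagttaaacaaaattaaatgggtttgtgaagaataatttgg
Sort1 intron: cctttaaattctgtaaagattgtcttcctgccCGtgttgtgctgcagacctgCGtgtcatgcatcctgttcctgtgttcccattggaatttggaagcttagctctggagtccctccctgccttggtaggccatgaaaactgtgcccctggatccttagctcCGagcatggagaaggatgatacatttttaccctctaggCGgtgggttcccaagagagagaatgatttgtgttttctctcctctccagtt
Ntrk2 intron: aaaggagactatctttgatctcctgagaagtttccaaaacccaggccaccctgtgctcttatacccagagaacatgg

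The 3 windows at Bdnf and Ntrk2 held 0, 2 and 0 CG dinucleotides, in the order past site III, downstream and Ntrk2 intron, and the Sort1 window held 4.

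The 2 marks were mostly listed at different genes among the 6, as they were over all genes. H4K8ac was listed at Bdnf, Ntrk2, Ntrk3 and Sort1 in 6 of 6 lists, and at these genes H3K27me3 was listed in none. Ngfr was the reverse, with H3K27me3 in 6 of 6 lists and H4K8ac in none. Ntf3 had both marks, each in 4 of 6 lists. Over all genes with a peak of the mark in at least 1 list, 24.1% were in 6 of 6 H4K8ac lists and 38% in 6 of 6 H3K27me3 lists. Of 16994 genes with a peak in any list, 13585 had H4K8ac and 7399 had H3K27me3, so most had 1 mark alone. Having a single mark was therefore not particular to these genes.

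**Figure D1:**
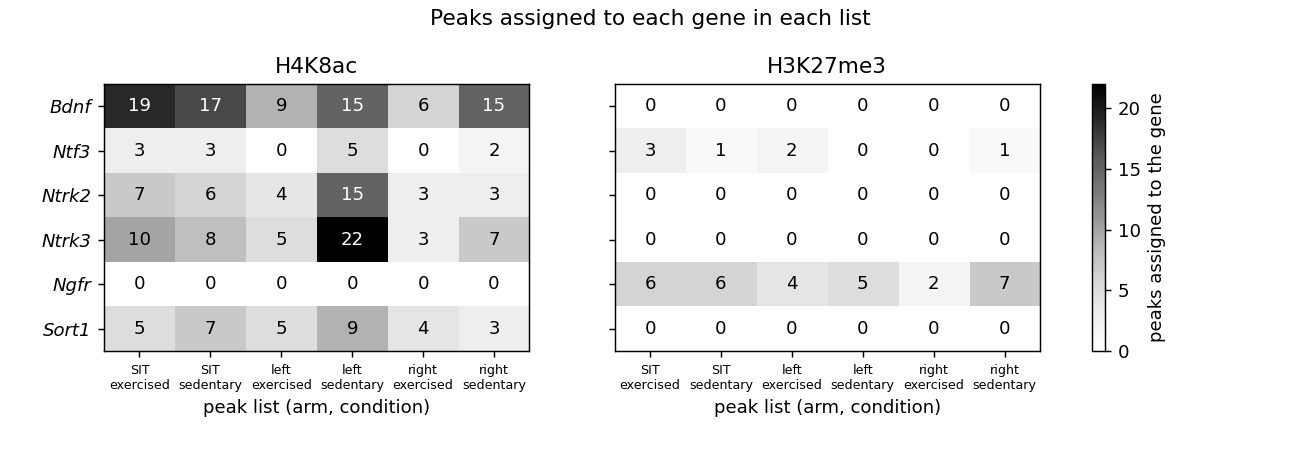
Number of peaks assigned to each gene (rows) in each list (columns, by arm and condition), for H4K8ac on the left and H3K27me3 on the right; shading follows the number printed in each cell. Bdnf has 6 to 19 H4K8ac peaks in every list and no H3K27me3 peak, and Ngfr has 2 to 7 H3K27me3 peaks and no H4K8ac peak.

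Bdnf (ENSMUSG00000048482, chromosome 2, 109674700 to 109727007, plus strand) had 81 H4K8ac peaks. There were 19 in exercised SIT, 17 in sedentary SIT, 9 in exercised left, 15 in sedentary left, 6 in exercised right and 15 in sedentary right. Only 1.86% of the 13585 genes with H4K8ac had as many over the 6 lists, where the median gene had 5. Of the 81 peaks, 38 touched the gene body, 19 lay upstream and 24 downstream. The lists classed 29 as promoter and 36 as distal intergenic. Peak widths ran from 710 to 8703 bp, with a median of 1978 bp.

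Bdnf has 9 annotated start sites when those within 100 bp of each other are counted once, numbered I to IX here in the order of their positions. Sites I to III lie within 2.33 kb, sites IV to VII between 17.74 and 19.71 kb from the first site, site VIII at 34.68 kb and site IX at 48.22 kb. Site IX is in the RefSeq annotation alone. An H4K8ac peak contained 7 of the 9 sites in exercised SIT and 4 in sedentary SIT. In the left arm the counts were 1 exercised and 5 sedentary, and in the right arm 1 exercised and 7 sedentary. SIT and the separate arms therefore went opposite ways, as the lengths of the lists did.

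Site I lay inside a peak in 1 list, sedentary SIT, where a peak of 4769 bp held sites I, II and III. In exercised SIT the nearest peak began 8 bp past site I and contained sites II and III. Sites II and III were also inside a peak in sedentary right. In sedentary left the peak began 45 bp past site III, and in exercised left and exercised right no site of this cluster was inside a peak.

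The cluster of sites IV to VII was within single broad peaks in 2 lists, of 8703 bp in exercised SIT and 6234 bp in sedentary left. In sedentary right a peak of 1945 bp held sites IV, V and VI and ended 34 bp before site VII, and in exercised right a peak of 2105 bp held site IV. In sedentary SIT and exercised left the nearest peaks began 1235 and 552 bp past site VII and held none of the 4 sites. Site IV was thus inside a peak in 4 of 6 lists, 2 of each condition. The sedentary right peak began at chr2:109692431, past the TCACGTCA that precedes the site, so the peak did not hold that sequence. Site IX was inside a peak in 2 lists, both sedentary (SIT and right).

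Site VIII was inside a peak in exercised SIT, exercised left, sedentary left and sedentary right. In sedentary SIT it fell in a gap between a peak that ended 288 bp before it and another further on. In exercised right the nearest peak was 7199 bp away. No start site was marked in the same way in the 3 exercised lists and otherwise in the 3 sedentary ones.

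**Figure D2:**
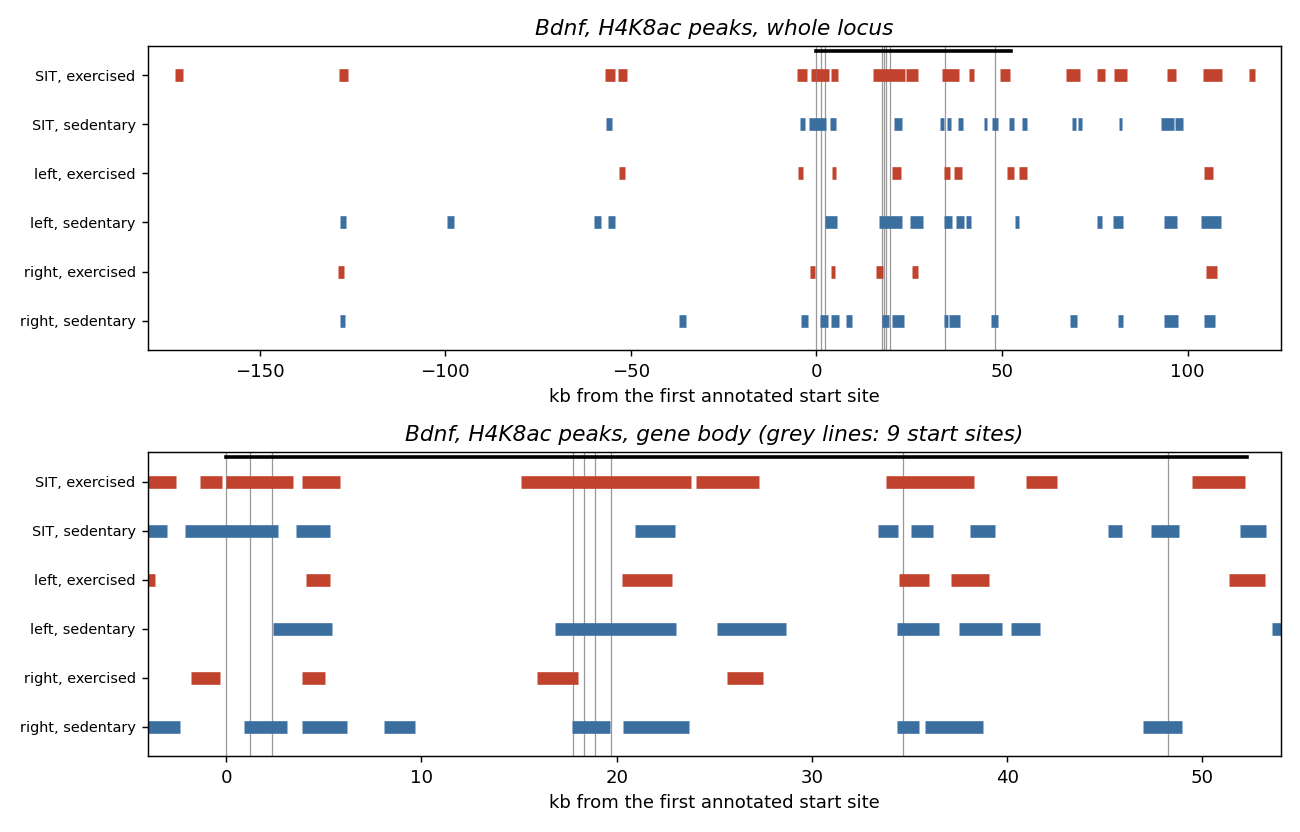
H4K8ac peaks assigned to Bdnf in the 6 lists, for the whole locus (top) and the gene body (bottom), against distance in kb from the first start site. Red bars are exercised and blue bars sedentary lists, grey lines mark the 9 start sites and the black line the gene. Exercised SIT holds 1 peak of 8703 bp over sites IV to VII, where sedentary SIT has none. Sedentary left holds 1 peak of 6234 bp over these sites, where exercised left has none.

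Chained by overlap, the 81 peaks formed 24 regions, of which 4 were in 5 or 6 lists. The region around sites I to III (6 lists) reached to 6.2 kb past the first site, and the bases common to all 6 lists were 972 bp at chr2:109678803-109679774, beyond the last of those sites. The region over sites IV to VII (6 lists) ran from 15.1 to 23.8 kb, and the bases common to 5 lists lay past site VII. The other 2 were around site VIII (5 lists, 33.4 to 39.8 kb) and downstream of the gene, at 103.6 to 109.4 kb (5 lists, all but sedentary SIT).

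Of the 83371 bases under any Bdnf peak, 1.17% were covered in 6 of 6 lists, and over all H4K8ac peaks 2.9% were. No Bdnf base was covered in 3 exercised lists and no sedentary list (0.175% over all H4K8ac peaks). In 3 sedentary and no exercised list 906 bases were covered, 1.09% against 0.768% over all H4K8ac peaks. These 906 bases flanked an exercised SIT peak at 94.4 to 96.8 kb, downstream of the gene.

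The length of DNA under Bdnf H4K8ac peaks was 58185 bp exercised and 28725 bp sedentary in SIT. It was 16464 and 39740 bp in the left arm, and 11079 and 32195 bp in the right arm. The exercised to sedentary ratios were 2.03, 0.414 and 0.344. The same ratios for the whole lists were 1.73, 0.391 and 0.437. Bdnf thus followed the direction of the whole list in each arm. The mean difference was -4977.3 bp ± 29843.2 (SD over 3 arms), and flipping the signs of the arms in an exact permutation test (two-sided) gave p = 1.0 (adjusted p = 1.0), where the smallest p that 3 arms allow is 0.25.

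Ntrk2 (ENSMUSG00000055254, chromosome 13, 58806569 to 59133970, plus strand) encodes TrkB, the receptor for BDNF. It had 38 H4K8ac peaks: 7 in exercised SIT, 6 in sedentary SIT, 4 in exercised left, 15 in sedentary left and 3 in each right list. The lists classed 25 as intronic and 4 as promoter, and by position 28 touched the gene body and 10 lay downstream. Its 10 start sites had a peak over 6 of them in exercised SIT and over 2 in sedentary left, and over none in the other 4 lists.

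Of 18 Ntrk2 regions, 2 were in 6 of 6 lists and both lay towards the 3′ end. One was in an intron, 283.5 to 287.3 kb from the first site, with 77 bp common to all lists. The other was past the end of the gene, 337.0 to 343.1 kb from that site, with 1129 bp common to all. Of the Ntrk2 bases under any peak, 3.56% were in 6 of 6 lists. None was in the 3 lists of 1 condition and in no list of the other. Covered length was 16008 bp exercised and 11503 bp sedentary in SIT, 11901 and 22559 bp in the left arm, and 3953 and 9973 bp in the right arm. The mean difference of -4057.7 bp ± 7769.6 (SD over 3 arms) had an exact sign-flip permutation p of 0.5 (adjusted p = 1.0).

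Ntrk3 (ENSMUSG00000059146, chromosome 7, 78175959 to 78738012, minus strand) encodes TrkC, the receptor for neurotrophin-3, and is the longest of the 6 genes at 562.1 kb. Its 55 H4K8ac peaks were divided as 10 in exercised SIT, 8 in sedentary SIT, 5 in exercised left, 22 in sedentary left, 3 in exercised right and 7 in sedentary right. They formed 33 regions, of which 22 were in a single list. The 2 regions in 5 lists were 17.7 to 21.4 kb from the first start site (all but exercised left) and 45.4 to 47.9 kb from it (all but sedentary SIT). Of the 55 peaks 48 lay in the gene body and 7 downstream, the farthest at 964.6 to 967.1 kb in both SIT lists and sedentary left. No base was common to 6 lists. In 3 sedentary and no exercised list 143 bases were covered, 0.24% of those at the gene. Covered length was 16509 and 9944 bp in SIT, 9293 and 34279 bp in the left arm, and 5040 and 14355 bp in the right arm, exercised before sedentary. The mean difference was -9245.3 bp ± 15775.6 (SD over 3 arms, exact sign-flip permutation p = 0.5, adjusted p = 1.0).

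Sort1 (ENSMUSG00000068747, chromosome 3, 108284082 to 108361511, plus strand) had 33 H4K8ac peaks, all of them over the gene body and 21 of them intronic. There were 5 in exercised SIT, 7 in sedentary SIT, 5 in exercised left, 9 in sedentary left, 4 in exercised right and 3 in sedentary right. No peak held its first start sites in any list. The 3 regions in 6 of 6 lists lay 10.8 to 13.9 kb, 21.2 to 25.2 kb and 72.0 to 77.8 kb from the first site. In the last of these, 2 peaks carried the symbol of the neighbouring gene Mybphl. Start site 3, 14226 bp from the first, was inside no peak and had the first of these regions within 1000 bp in 6 of 6 lists. Of the Sort1 bases under any peak, 5.57% were common to 6 lists by the peaks given its symbol, and 9.41% with the Mybphl peaks counted.

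Only at Sort1 were bases covered in all 3 exercised and no sedentary list, over 62 bp at chr3:108347499-108347560, which is 0.247% of its covered bases against 0.175% over all H4K8ac peaks. Covered length at Sort1 was 9631 bp exercised and 8350 bp sedentary in SIT, 8703 and 15546 bp in the left arm, and 7227 and 9701 bp in the right arm. The exercised to sedentary ratios were 1.15 in SIT, 0.56 in the left arm and 0.745 in the right arm. The direction was that of the whole lists in each arm, and the ratio was 0.667, 1.43 and 1.7 times that of the list. The mean difference was -2678.7 bp ± 4065.9 (SD over 3 arms, exact sign-flip permutation p = 0.5, adjusted p = 1.0).

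**Figure D3:**
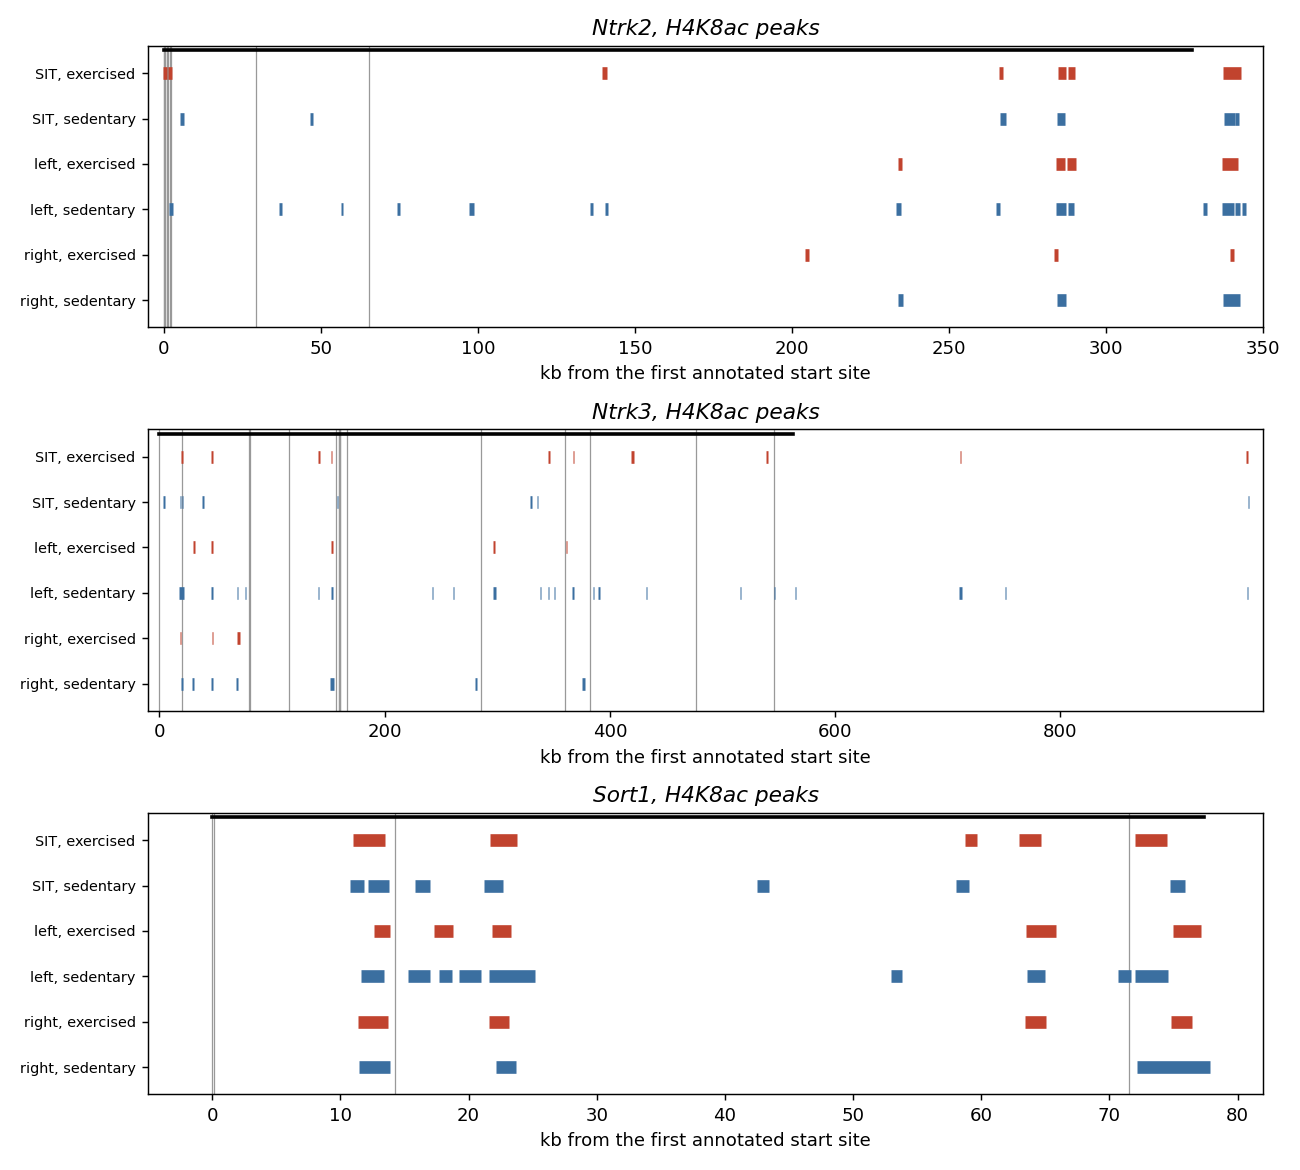
H4K8ac peaks assigned to Ntrk2, Ntrk3 and Sort1 in the 6 lists, against distance in kb from the first start site of each gene. Red bars are exercised and blue bars sedentary lists, grey lines mark start sites and the black line the gene; Sort1 shows 3 groups of peaks shared by 6 of 6 lists, and Ntrk3 shows peaks scattered from 3.1 to 967.1 kb, beyond the end of the gene.

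Ngfr (ENSMUSG00000000120, chromosome 11, 95568818 to 95587735, minus strand) encodes p75, which is low in most mature neurons, and carried H3K27me3 throughout. It had 6 peaks in exercised SIT, 6 in sedentary SIT, 4 in exercised left, 5 in sedentary left, 2 in exercised right and 7 in sedentary right. The start site was inside an H3K27me3 peak in 6 of 6 lists. That peak was 24670 bp wide in exercised SIT, 13969 bp in sedentary SIT, 16751 bp in exercised left, 11701 bp in sedentary left, 11758 bp in exercised right and 13569 bp in sedentary right. The start-site peak was wider in the exercised list in SIT and left and narrower in right.

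A 2nd broad domain, upstream of Ngfr at -44.1 to -31.1 kb from the start site, was also in 6 of 6 lists, and a region over the 3′ end of the gene was in 5 (all but exercised right). Of 59073 bases under any Ngfr peak, 31.5% were common to 6 lists, against 17.8% over all H3K27me3 peaks. None was in 3 exercised and no sedentary list or the reverse, which over all H3K27me3 peaks held for 0.161 and 0.189% of bases. Covered length was 47371 bp exercised and 42362 bp sedentary in SIT, 38527 and 35921 bp in the left arm, and 18916 and 49976 bp in the right arm. The mean difference was -7815.0 bp ± 20166.6 (SD over 3 arms, exact sign-flip permutation p = 1.0, adjusted p = 1.0).

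Ntf3 (ENSMUSG00000049107, chromosome 6, 126101412 to 126166910, minus strand) was the gene with both marks. H3K27me3 lay over its start sites, in a region of 4793 bp, in exercised SIT, exercised left, sedentary SIT and sedentary right, and was not listed in exercised right or sedentary left. Sites 3 and 4 of its 4 start sites, 1950 and 3028 bp from the first, were inside this peak in all 4 lists, and sites 1 and 2 only in exercised left. The other 3 regions were each in 1 exercised list, at -2.0 to -0.6 kb and -4.8 to -2.7 kb from the first site in SIT and at -20.8 to -18.3 kb in the left arm. Of the H3K27me3 bases at the gene 64.1% were in exercised lists alone and 1.86% in sedentary lists alone, and 60.1% were in a single list. The same shares over all H3K27me3 peaks were not computed, so these values do not set Ntf3 apart. The whole exercised list was 1.88 times as long in bp as the sedentary one in SIT, 1.25 times in left and 0.36 times in right.

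H4K8ac at Ntf3 was listed in 13 peaks, 6 in an intron, 6 distal intergenic and 1 at a promoter. The region in most lists was intronic, at 22.0 to 25.9 kb from the first site, in 4 lists (both SIT lists and both separate sedentary lists). A region upstream, at -48.4 to -45.6 kb, was in the 3 sedentary lists and in no exercised list. Of the H4K8ac bases at Ntf3 69.6% were in sedentary lists alone and 12.1% in exercised lists alone. The same shares over all H4K8ac peaks were not computed. Sedentary lists alone also held the larger share at Ntrk3 (56.2 and 18.4%), Ntrk2 (39.5 and 17.7%), Sort1 (35.9 and 10.7%) and Bdnf (24.8 and 22.6%). Over the intronic and the upstream region of Ntf3, 1280 bases were covered in 3 sedentary and no exercised list. They made up 9.53% of the H4K8ac bases at Ntf3, against 0.768% over all H4K8ac peaks. No H4K8ac peak was listed at Ntf3 in exercised left or exercised right.

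In exercised SIT alone, an H4K8ac peak of 1524 bp (chr6:126162797-126164320) lay inside the H3K27me3 peak of 4283 bp (chr6:126162321-126166603), over start site 4. Of all H4K8ac peaks of that list 0.7% overlapped H3K27me3, and this was the only member peak to do so in any of the 6 H4K8ac lists. Whether both marks were on the same cells or alleles cannot be told apart in these nuclei.

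**Figure D4:**
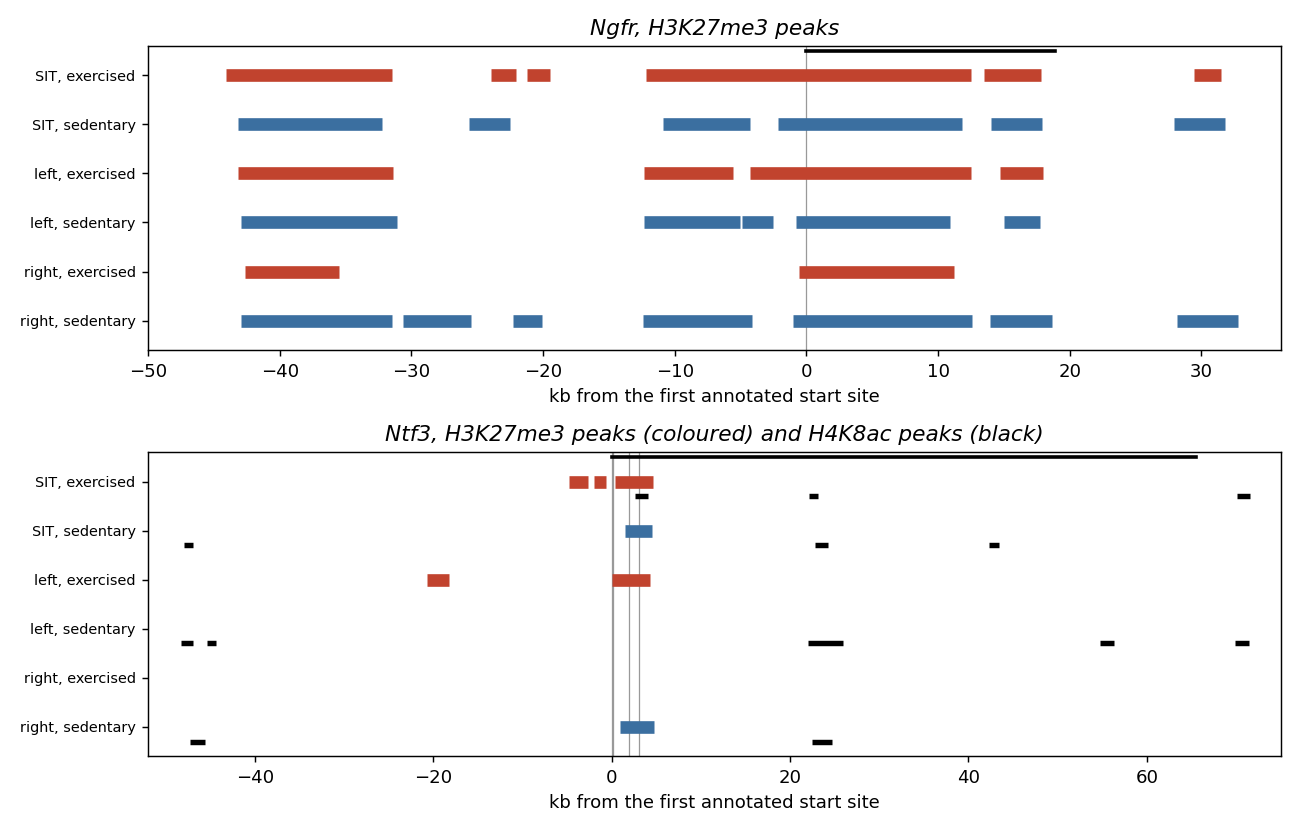
H3K27me3 peaks at Ngfr (top) and both marks at Ntf3 (bottom) in the 6 lists, against distance in kb from the first start site. Red bars are H3K27me3 of exercised and blue bars of sedentary lists, black bars below them are H4K8ac, grey lines mark start sites and the black line at the top the gene; the Ngfr start site is covered in every list, and in exercised SIT the H4K8ac peak at the Ntf3 start lies within H3K27me3.

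A gene is called gained when it is in the exercised list of an arm and not in the sedentary one, and lost for the reverse. For H4K8ac no member was gained in SIT (27.5% of genes listed in that arm were), in the left arm (3.58%) or in the right arm (9.14%). No member was lost in SIT (10.1% of genes). Ntf3 was the 1 member lost in the left arm (51.9%) and the 1 lost in the right arm (36.7%). The other 4 genes with H4K8ac were listed in both lists of every arm.

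For H3K27me3 no member was gained or lost in SIT, where 41.4% of genes were gained and 1.02% lost. Ntf3 was gained in the left arm, where 18.5% of genes were gained and 9.13% lost. It was lost in the right arm, where 43.6% were lost and 3.12% gained. Ngfr was in both lists of every arm. With H3K27me3 the covered length at Ntf3 was 7754 bp exercised and 3034 bp sedentary in SIT, 6707 and 0 bp in the left arm, and 0 and 3855 bp in the right arm. The mean difference was 2524.0 bp ± 5613.0 (SD over 3 arms, exact sign-flip permutation p = 0.5, adjusted p = 1.0), and it was 432.5 bp without the left arm, 1426.0 bp without SIT and 5713.5 bp without the right arm. With H4K8ac it was 4084 and 3480 bp, 0 and 9349 bp, and 0 and 3890 bp in the same order, and the mean difference was -4211.7 bp ± 4984.3 (exact sign-flip permutation p = 0.5, adjusted p = 1.0).

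For all 5 genes with H4K8ac the covered length was greater in the exercised list in SIT and greater in the sedentary list in both separate arms. The whole lists had the same directions in the same arms, and the exercised H4K8ac groups were those from which libraries had been left out for a high false discovery rate. The part of either in these values was not tested. Without the left arm the mean difference was -1375.0 bp at Ntrk3, -757.5 bp at Ntrk2, -596.5 bp at Sort1 and -1643.0 bp at Ntf3. Per Mb covered by the list, the mean difference turned to higher in exercised for Bdnf (6.57 bp per Mb), Ntrk2 (18.1) and Sort1 (54.6) and stayed lower for Ntrk3 (-72.8) and Ntf3 (-78.4).

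**Figure D5:**
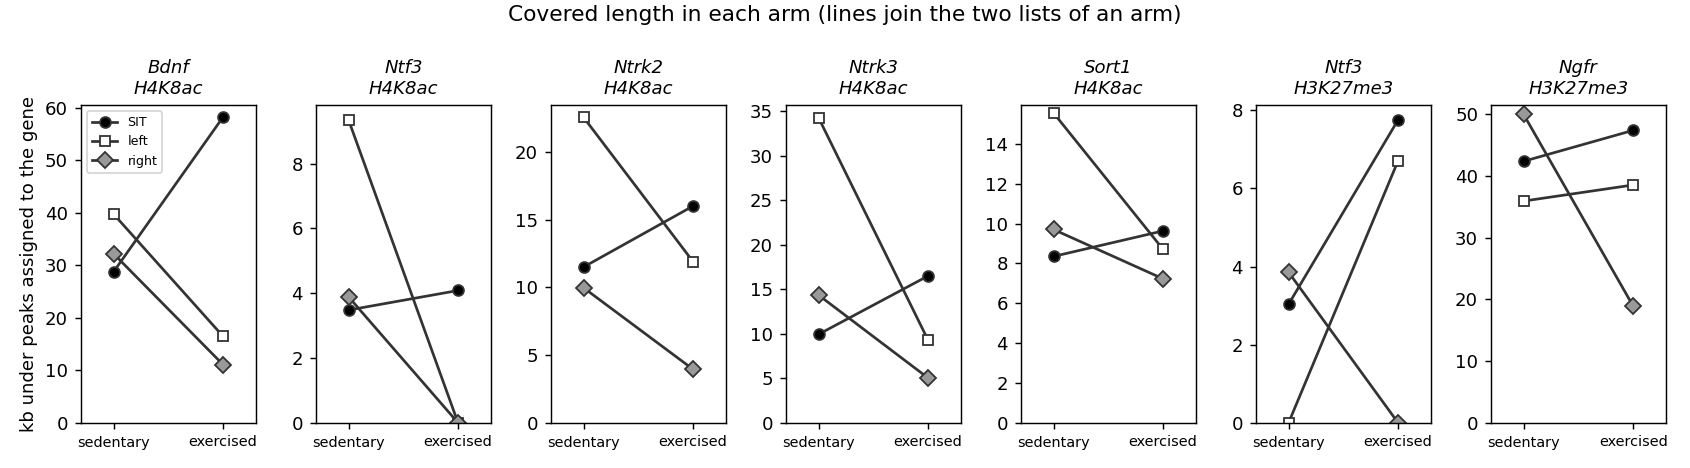
Length of DNA in kb under the peaks assigned to each gene, in the sedentary and the exercised list of each arm (lines join the lists of 1 arm; y axes differ). SIT rises and both separate arms fall from sedentary to exercised for each of the 5 genes with H4K8ac, and Ntf3 and Ngfr with H3K27me3 rise in SIT and left and fall in right.

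Of 83 exercised H4K8ac peaks at the 6 genes, 50 overlapped a sedentary peak of the same arm by at least 1 bp (60.2%, 95% Wilson interval 49.5 to 70.1), and over all exercised H4K8ac peaks 54.6% did. Of 137 sedentary peaks 57 overlapped an exercised one (41.6%, 33.7 to 49.98, against 39.2% over all). For H3K27me3 12 of 17 exercised (70.6%, 46.9 to 86.7, against 56.0%) and 14 of 20 sedentary peaks (70.0%, 48.1 to 85.5, against 62.0%) did. The intervals cover counting error only, and neighbouring peaks of a gene are not independent.

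Of 56 other genes of neurotrophin signalling, processing and Bdnf regulation, 43 had H4K8ac in at least 1 list and 16 in 6 of 6, and 18 and 7 had H3K27me3. None was gained in all 3 arms or lost in all 3 arms for either mark. For H4K8ac, 8 of the 38 listed in SIT were gained (21.1%, against 27.5% of all genes) and 5 lost (13.2%, against 10.1%). In the left arm 1 of 35 was gained (2.86%, against 3.58%) and 14 were lost (40.0%, against 51.9%), and in the right arm 3 of 33 were gained (9.09%, against 9.14%) and 8 lost (24.2%, against 36.7%). For H3K27me3, 7 of 18 were gained in SIT (38.9%, against 41.4%) and 1 lost (5.56%, against 1.02%). In the left arm 1 of 14 was gained (7.14%, against 18.5%) and 0 lost (0%, against 9.13%), and in the right arm 0 of 15 were gained (0%, against 3.12%) and 6 lost (40.0%, against 43.6%).

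Among those 56 genes, the 5 with H4K8ac in 6 lists and the greatest total width were Lingo1 (a p75 co-receptor, 225.6 kb), Mef2c (an activity-dependent transcription factor, 214.8 kb), Pik3r1 (a regulatory subunit of PI3-kinase, 98.9 kb), Sorl1 (a sortilin relative, 74.8 kb) and Rtn4rl2 (a Nogo receptor relative, 72.4 kb). For H3K27me3 they included Sorcs1 (a sortilin relative, 344.7 kb), Pik3r1 (322.8 kb), Sorl1 (86.8 kb) and Ppargc1a (a transcriptional coactivator induced in muscle by exercise, 78.2 kb). Pik3r1, Sorl1 and Ppargc1a were in 6 of 6 lists of both marks, with H3K27me3 at no promoter of these genes in any list. Each total is the sum of peak widths over 6 lists.

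The 5 genes whose covered length over the 12 lists was most like that of Bdnf, by the summed absolute difference of log2(1 + bp), were Vav3 (0.61), Gpd2 (0.84), Prickle2 (0.89), Cog5 (0.89) and Sorbs2 (0.95). They had 67 to 98 H4K8ac peaks. None of the 5 had an H3K27me3 peak, which followed from the choice, because the 12 lists include those of H3K27me3, where Bdnf had none. The measure compares lengths alone and says nothing of function.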

How the data were processed

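CUT&RUN libraries of H4K8ac and H3K27me3 from hippocampal nuclei were compared between exercised and sedentary mice in 3 arms, grouped by the sample labels. IgG samples (20 of 60) are not analysed here. Per the paper and the submitters' processing notes, the authors checked reads with FastQC 0.11.9, aligned them to GRCm38 with Bowtie2 2.4.1, called peaks with SEACR in stringent mode and annotated them with ChIPseeker 1.8.6, with a promoter window of 3000 bp to either side of a start site. Libraries with a high false discovery rate were left out by the authors, all of them exercised H4K8ac and most of them separate isolations, so those lists stand for fewer libraries than the labels count, and how libraries were combined is not given in the sources used here. The deposited tables hold peak positions, widths and distances in bp, with no signal or count.

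The members and gene lists were chosen with earlier results of these data known. Covered length was the sum of widths of peaks with a gene's symbol. Start sites came from GENCODE M21 and RefSeq, merged within 100 bp, and regions were chained by overlap. Covered-length differences were tested by flipping the signs of the 3 arms (exact permutation test, two-sided), with Benjamini-Hochberg adjustment over 12 tests, a gene without a peak counting as p = 1. Named genes were the 6 members, other neurotrophin genes gained or lost in 3 arms or listed in 6 of 6 lists (at most 5 a mark, by width), genes given a peak that overlaps a member, and the 5 most like Bdnf. Some genes that this rule names are not reported here. Functions were tested on 20 simulated sets. Python 3.11.15, pandas 2.3.3, numpy 2.4.6, scipy 1.17.1 and matplotlib 3.10.9 were used. Other assignments of peaks, subsets of peaks, list lengths, arms and distances were tried.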

Additional observations from a re-analysis of the deposited data

Results flagged for a closer look

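H3K27me3 at Ntf3 went opposite ways in the separate arms. The covered length, exercised minus sedentary, was 6707 bp in the left arm, where the peaks were in the exercised list alone, and -3855 bp in the right arm, where the peak was in the sedentary list alone. Each arm is 1 pair of lists, so the difference between the arms was not tested. Over all peaks the exercised H3K27me3 list was 1.25 times as long in bp as the sedentary one in the left arm and 0.36 times in the right arm.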

How the results depend on the processing

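Of 107 comparisons with another setting, 82 kept their direction or, for counts, stayed within 1.5 times, and shares stayed within their 95% interval. For H4K8ac, promoter peaks alone gave 2 gains in place of 0 and 3 losses in place of 2, and the widest 50% of each list gave 4 losses in place of 2. For H3K27me3, gains were 2 in place of 1 with the widest 50% of each list and with at least 2 peaks per gene, and the latter gave 0 losses in place of 1. Leaving out each arm in turn gave 1 to 2 losses for H4K8ac and 0 to 1 gains and 0 to 1 losses for H3K27me3, with the values of 1 without the left or the right arm (H4K8ac) and of 0 without the left arm (gains) or the right arm (losses).

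Covered length, exercised minus sedentary, turned positive at Bdnf without the left arm (4172.0 bp) or the right arm (3092.0 bp), with -22196.0 bp without SIT, and at Ngfr without the right arm (3807.5 bp), with -14227.0 bp without SIT. It was -13025.5 bp at Ngfr without the left arm. With H4K8ac it ran from -17150.5 bp without SIT to -1375.0 bp without the left arm at Ntrk3, and in the same way from -8339.0 to -757.5 bp at Ntrk2, from -4658.5 to -596.5 bp at Sort1 and from -6619.5 to -1643.0 bp at Ntf3, and with H3K27me3 from 432.5 bp (without the left arm) to 5713.5 bp (without the right arm) at Ntf3. At Ngfr it was 3854.0 bp with promoter peaks alone and 1719.7 bp without distal intergenic peaks, and at Ntf3 (H4K8ac) 508.0 bp with promoter peaks alone. With equal numbers of peaks it was 848.3 bp at Ntrk2 and 683.3 bp at Sort1. Per Mb of list, a scale chosen after seeing the data, it was 6.57 bp at Bdnf, 18.1 at Ntrk2 and 54.6 at Sort1. The cause was not tested. The smallest p that 3 arms allow in the exact permutation test is 0.25.

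The Bdnf start sites summed over the 3 exercised lists were 9 inside a peak, 14 within 1000 bp and 23 within 3000 bp, and over the sedentary lists 16, 20 and 25. With an overlap of 50% of both peaks, 30.1% of exercised and 18.2% of sedentary H4K8ac peaks were shared.

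No paired analysis was possible because the lists hold no values per replicate, so replicates were neither matched by number nor left out; the exercised and sedentary lists were paired by arm alone. Presence in a list depends on a depth that is unknown, and absence does not show that a mark is absent.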
